A study of Mus with 50 samples.

Results

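Collagen genes were taken as all genes whose annotated symbol reads Col, a number, a and a number. Of 22180 genes named by a probe set with a single symbol, 44 met this rule, and all 44 symbols in the RefSeq gene table that have this form were measured. They comprised 11 fibrillar, 6 basement membrane, 7 beaded filament, 9 fibril-associated, 4 transmembrane, 3 network-forming and 2 multiplexin collagens, 1 anchoring fibril collagen and 1 other member, Col26a1. The signal of each gene is that of its single-symbol probe set with the highest median, as a log2 value. The arrays came from 50 female mice, 1 liver and 1 array each, and mice are named here by their animal number.

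All mice were backcross animals of the C57 and FVB strains, all carried the MMTV-Neu transgene, in which a promoter active in the mammary gland drives a proto-oncogene, and all had breast cancer as a comorbidity. The series describes livers taken at both extremes of a grade of aging, but the labels do not tell which mouse lay at which extreme. The livers therefore formed 1 group, and the question the data can address is how collagen genes varied and covaried over mice, with the fibrillar set against the basement membrane collagens. Ages were not given in the sources used here.

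Collagens are secreted proteins built of chains wound into a triple helix. Fibrillar collagens such as types I and III form the cable-like fibrils of connective tissue, which in liver are made mainly by hepatic stellate cells and portal fibroblasts and accumulate in fibrosis. Type IV collagen forms the sheet-like scaffold of basement membranes around vessels and ducts and is sparse along the sinusoids of a healthy liver. Type VI forms beaded filaments between both, fibril-associated collagens decorate fibril surfaces, and type XVIII, a precursor of endostatin that hepatocytes are known to make, sits in the basement membrane zone.

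The arrays had medians between 3.27 and 3.34, and Alb, the hepatocyte gene for albumin, lay between 13.20 and 13.54 in all 50 livers. Animals 64, 84, 87 and 235 stood apart, with median correlations with the other arrays of 0.794, 0.903, 0.932 and 0.857, against 0.944 or more in the other 46. Another 7 livers lay far out on a list of markers of another tissue. Animals 24, 96, 142, 149, 170 and 301 were high for pancreatic acinar genes and animal 161 for the mammary epithelium list. Of the 4 genes measured of the mammary list, Csn2 and Csn3 were highest in animal 161, Wap in animal 24 and Krt14 in animal 91. Results are given over all 50 livers and over the 46 livers without the first 4. In bulk tissue, fewer cells of a type and less RNA per cell cannot be told apart.

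Of the 44 collagen genes, 24 had a median at or above 3.61, the median level over all genes, and entered the tests with the other genes that did. These were 8 fibrillar, 2 basement membrane, 4 beaded filament, 3 fibril-associated, 3 transmembrane and both multiplexin collagens, Col7a1 and Col26a1. The 20 others, among them Col2a1 of cartilage, Col10a1 of growth plate cartilage and the 3 network-forming members, lay below that level and stayed out of the fits on Col1a1, Col4a1 and Col18a1. They are described by their values, apart from 3 pairs (Col4a3 with Col4a4, Col4a5 with Col4a6 and Col8a1 with Col8a2) that were fitted over all genes with no filter on low values. Just inside the limit were Col7a1, the anchoring fibril collagen of skin, with a median of 3.74, and Col5a2 with 3.77. Just outside it lay Col9a3 with 3.59 and Col16a1 with 3.55. Among the 24, the median SD over livers was 0.263, beside 0.280 for all 11090 genes at or above the level. It was 0.306 for the 8 fibrillar genes and 0.465 for Col4a1 and Col4a2.

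**Figure D1:**
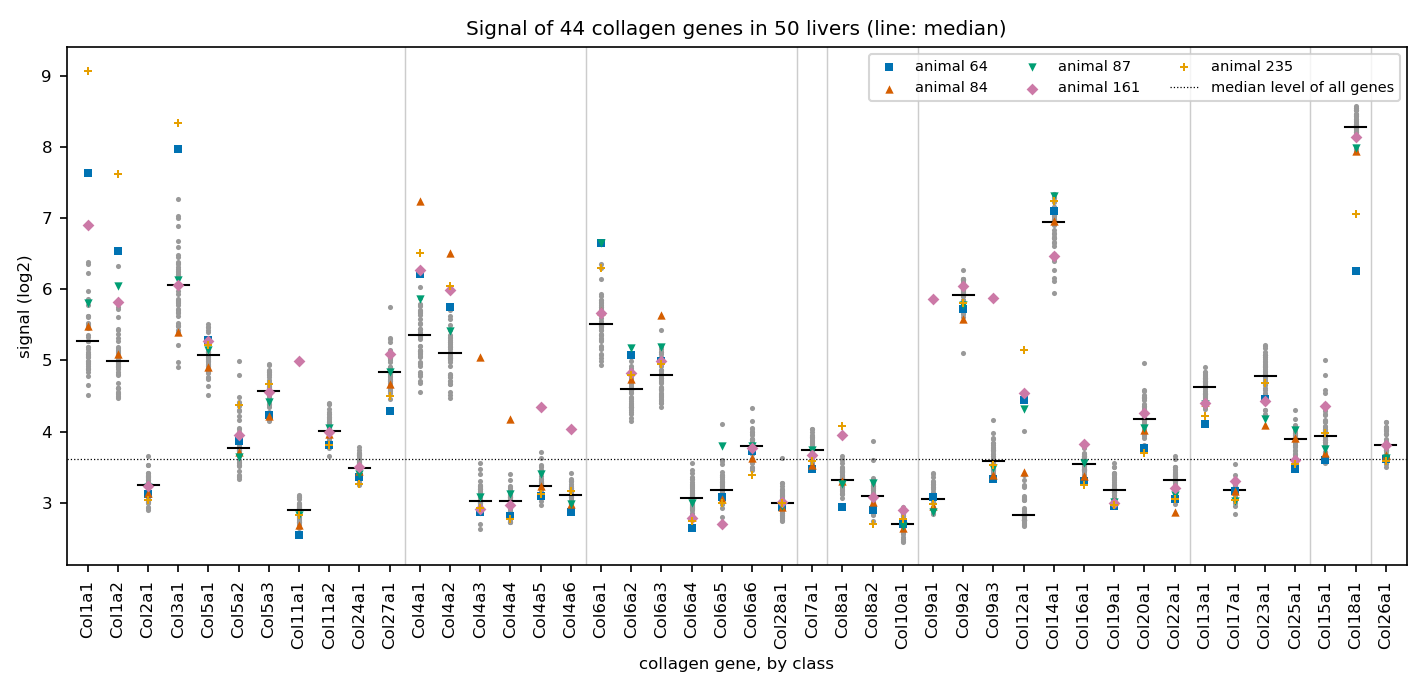
Log2 signal of each of 44 collagen genes (horizontal axis, by class, classes parted by vertical lines) in 50 livers; each point is 1 liver, the short line is the median and the dotted line is the median level of all genes (3.61). Animals 64 and 235 lie at the top for Col1a1 and Col3a1 and at the bottom for Col18a1, animal 84 at the top for Col4a1 to Col4a4, and animal 161 at the top for Col9a1, Col9a3 and Col11a1.

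On the probe sets used, the genes of types I and III collagen varied most among the fibrillar genes. Col1a1, the main chain of type I collagen, ran from 4.51 in animal 284 over a median of 5.28 to 9.08 in animal 235, with an SD of 0.77. Col1a2, its partner chain, ran from 4.470 over 4.999 to 7.617 (SD 0.58), and Col3a1, the only chain of type III collagen, from 4.90 over 6.06 to 8.34 (SD 0.66). Animal 235 was highest for these 3 genes and animal 64 second, with 7.63 for Col1a1, 6.53 for Col1a2 and 7.97 for Col3a1. For Col1a1, animal 161 followed with 6.91, and the other 47 livers reached 6.38 at most. The remaining fibrillar genes in the tests had smaller SDs. Col5a1 and Col5a3, chains of the type V collagen that starts fibrils, had SDs of 0.21 each, Col11a2 had 0.17 and Col27a1 had 0.25. Of these, Col11a2 had a low level, with a median of 4.01 beside the limit of 3.61 for the tests. A second probe set of Col5a1, with a median of 3.40, had an SD of 0.71, so its small spread holds for the brighter probe set only. Col5a2, also of type V, ran from 3.33 over 3.77 to 4.99 (SD 0.36) and was highest in animals 282 and 292, which had 5.77 and 5.11 for Col1a1.

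Col1a1, Col1a2 and Col3a1 rose and fell together. Between Col1a1 and Col1a2, which form 1 trimer, Pearson's r was 0.907 and Spearman's rho 0.811 over 50 livers (permutation p = 1e-05 for each, two-sided, the smallest that 100000 permutations can give). Their adjusted p in a limma fit of all genes was 2.24e-16. Without animals 235 and 64, the 2 farthest from the median, r was 0.796, and within the 4 stretches of animal numbers (7 to 79, 84 to 128, 137 to 235 and 253 to 301) it was 0.908, 0.844, 0.974 and 0.662. Col1a1 and Col3a1 had r = 0.835 and rho = 0.773 (permutation p = 1e-05 for each; limma adjusted p = 1.34e-11), r = 0.706 without the same 2 mice, and 0.960, 0.650, 0.855 and 0.888 within stretches. Over 46 livers the 2 correlations were 0.806 and 0.729 (limma adjusted p = 1.82e-08 and 2.99e-06). Ordered by r with Col1a1 among 11089 genes, Col1a2 was 1st and Col3a1 6th over 50 livers and they were 3rd and 10th over 46.

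Type V collagen chains did not follow each other in the same way. Between Col5a1 and Col5a2, r was 0.149 (rho = 0.226, permutation p = 0.300 and 0.116, limma adjusted p = 0.896). Col5a1 is read by a second probe set that correlated with the first at r = 0.175 only, so its values depend on the probe set. Col3a1 and Col5a2, which are adjacent genes, had r = 0.366 and rho = 0.368 (permutation p = 0.0105 and 0.00898, limma adjusted p = 0.0285). That relation was 0.356 without animals 235 and 64 and 0.355 over 46 livers, where the adjusted p was 0.205, and it ran from -0.00366 to 0.671 within stretches.

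**Figure D2:**
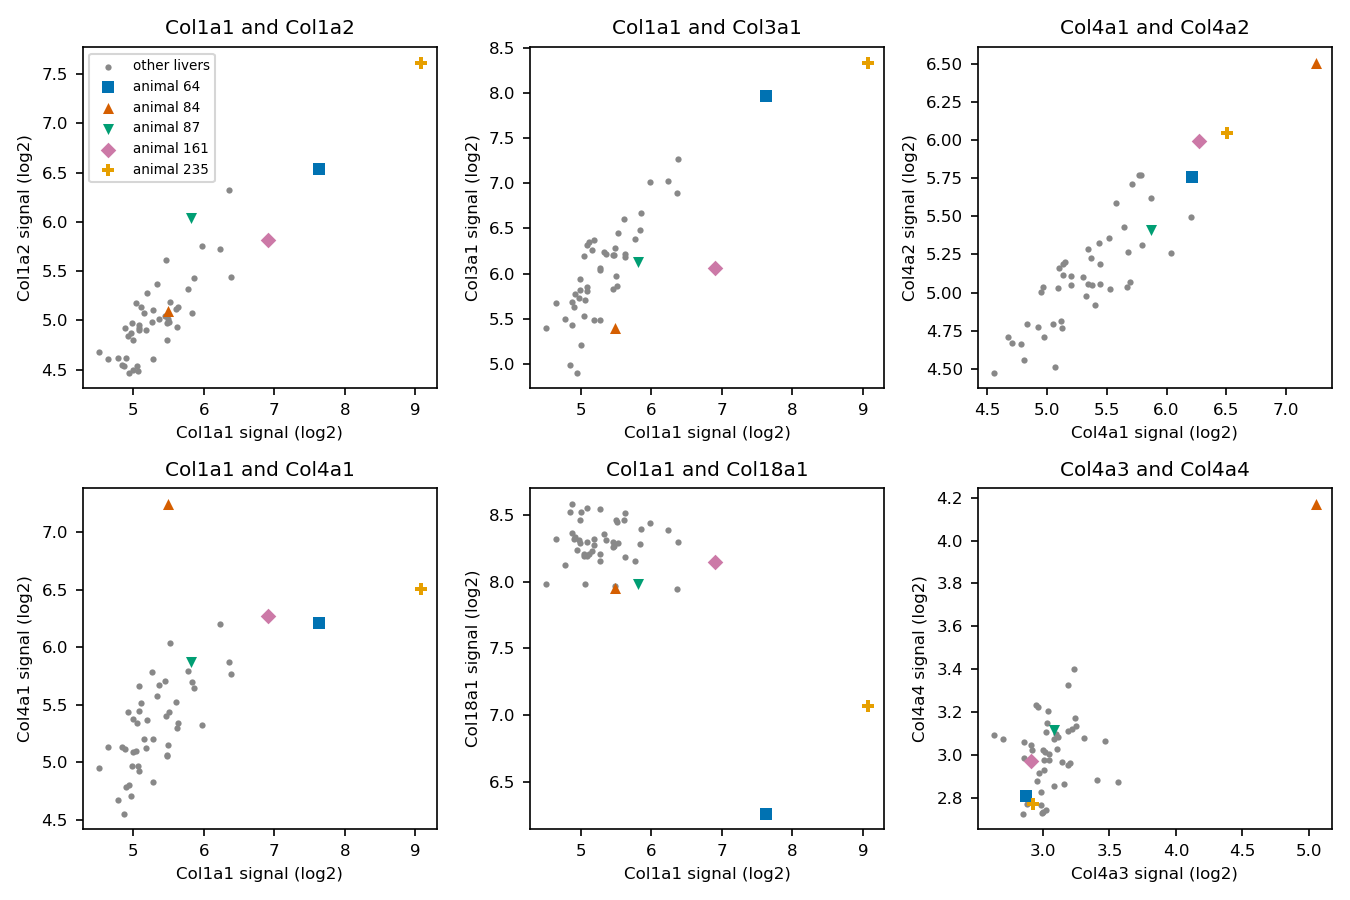
Log2 signals of pairs of collagen genes in 50 livers, 1 point per liver, with animals 64, 84, 87, 161 and 235 marked. Col1a1 with Col1a2 and Col3a1, and Col4a1 with Col4a2, form elongated clouds (r over 46 livers of 0.806, 0.729 and 0.830), whereas the r of Col1a1 with Col18a1 and of Col4a3 with Col4a4 over 46 livers was -0.0917 and 0.142.

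Of the type IV genes, only the main chains Col4a1 and Col4a2 reached the level of the tests. Col4a1 ran from 4.56 in animal 91 over a median of 5.36 to 7.25 in animal 84 (SD 0.51). Col4a2 ran from 4.48 over 5.11 to 6.51, also lowest in animal 91 and highest in animal 84 (SD 0.42). Animals 235 and 161 came next for both, with 6.51 and 6.27 for Col4a1. These adjacent genes, whose chains form 1 trimer, had r = 0.895 and rho = 0.861 (permutation p = 1e-05 for each; limma adjusted p = 1.39e-14), 0.845 without animals 84 and 235, and 0.955, 0.963, 0.826 and 0.817 within the stretches. Over 46 livers r was 0.830 (limma adjusted p = 5.75e-09). Col4a2 was 1st of 11089 genes by r with Col4a1 over both sets of livers.

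The minor type IV chains were flat except in single livers. Col4a3 and Col4a4, adjacent genes whose chains meet in the basement membrane of the kidney filter, had medians of 3.02 each. Animal 84 reached 5.05 and 4.17, against at most 3.56 and 3.40 in the other 49. Their r of 0.686 (permutation p = 0.00203, limma adjusted p = 4.18e-06) rested on animal 84, since it was 0.259 without animals 84 and 282 and 0.142 over 46 livers (adjusted p = 0.724). Col4a5 and Col4a6, the adjacent genes of the remaining chains, had medians of 3.24 and 3.11 and were highest in animal 161, with 4.35 and 4.03. Their r of 0.623 (permutation p = 0.00141, limma adjusted p = 0.000376) fell to 0.177 without animals 161 and 91, with rho = 0.2325 over 50 (permutation p = 0.107). Over 46 livers, which keep animal 161, it was 0.646 (adjusted p = 0.000267).

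Type VI collagen, which links cells to the matrix, is built mainly of 3 chains, and all 3 varied more than Col6a6. Col6a1 ran from 4.93 over 5.51 to 6.66 (SD 0.39), Col6a2 from 4.15 over 4.59 to 5.17 (SD 0.25) and Col6a3 from 4.34 over 4.79 to 5.64 (SD 0.28). Animal 87 was highest for Col6a1 and Col6a2, and animal 84 for Col6a3. Col6a1 and Col6a3 had r = 0.508 (rho = 0.494, permutation p = 0.00019 and 0.00039, limma adjusted p = 0.00186), with 0.498 to 0.564 within stretches, and 0.501 over 46 livers (adjusted p = 0.0347). Between the adjacent genes Col6a1 and Col6a2, r was 0.509 (limma adjusted p = 0.00194) and 0.343 over 46 livers (adjusted p = 0.173). Col6a6, a separate chain gene, varied little (SD 0.18) and had r = -0.446 with Col4a1 and -0.267 with Col1a1.

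Of the fibril-associated collagens, 3 reached the level of the tests and others stood out in single livers. Col14a1, which binds fibril surfaces, ran from 5.96 over 6.95 to 7.34 (SD 0.34), lowest in animals 96, 91 and 89. Col9a2 lay at 5.93 (SD 0.20) and Col20a1 at 4.18 (SD 0.24). Col12a1, a fibril-associated collagen of dense and loaded connective tissue, had a median of 2.83 and was the only collagen gene whose values fell into separate clusters of at least 5 livers each. Single livers or pairs of livers lay as far or farther from the rest for Col9a1, Col9a3, Col11a1, Col4a3 and Col18a1. Animals 235, 161, 64, 87 and 257 had 5.14, 4.54, 4.44, 4.32 and 4.01, and the other 45 livers ran from 2.68 to 3.44. No pooled correlation is given for it. For Col1a1, these 5 livers had 9.08, 6.91, 7.63, 5.81 and 6.38, and animal 10, at 6.36 for Col1a1, had 3.03 for Col12a1.

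Col18a1, the type XVIII collagen gene, had its farthest values below the median. It ran from 6.26 in animal 64 and 7.06 in animal 235 over a median of 8.29 to 8.59 (SD 0.37), and the other 48 livers lay at 7.95 or more. Its r with Col1a1 was -0.663 (permutation p = 0.00059, limma adjusted p = 1.49e-06), with rho = -0.233 (permutation p = 0.104). The relation rested on animals 235 and 64: without them r was -0.134, and over 46 livers it was -0.0917 (adjusted p = 0.741). With Col4a1, r was -0.409 (limma adjusted p = 0.0105) and -0.0194 over 46 livers. Within stretches, Col1a1 and Col18a1 had -0.881, -0.449, -0.856 and 0.393. Col15a1, the other multiplexin, ran from 3.554 over 3.939 to 5.005 and had r = 0.201 with Col18a1 (permutation p = 0.148, limma adjusted p = 0.527). The network-forming genes Col8a1 and Col8a2, chains of the collagen under vascular and corneal endothelium, had r = -0.0170 (permutation p = 0.904). Pairs named with permutation p-values are the 15 computed, and their adjusted p-values are over all genes tested with the first gene as covariate, 22179 for the 3 pairs below the level and 11089 for the others.

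A fit of every gene on Col1a1 showed how far the members shared its course. Col1a2, Col3a1, Col4a1, Col4a2, Col6a1, Col6a2 and Col6a3 were positively related over 50 livers, 7 of 23 members tested, where 24.4% of all genes were (limma, adjusted p under 0.05). Col11a2, Col18a1, Col20a1 and Col25a1 were negatively related, 4 of 23 against 21.9% of all genes. Both counts over 50 livers lay near the background share. Over 46 livers, the same 7 genes were positive, against 7.30% of genes, and no member was negative, where 6.78% of genes were. No member with a negative r reached an unadjusted p under 0.05 there. Slopes per log2 unit of Col1a1 over 46 livers were 0.65 ± 0.07 (SE) for Col1a2, 0.77 ± 0.11 for Col3a1, 0.59 ± 0.08 for Col4a1, 0.42 ± 0.08 for Col6a1 and 0.32 ± 0.06 for Col6a3. The fibrillar genes Col5a1, Col5a2, Col5a3, Col11a2 and Col27a1 did not pass the test there, with r of 0.149, 0.296, 0.108, -0.248 and -0.0537. Over the 23 members, median r was 0.108 in 46 livers, beside -0.00820 for all genes.

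The first principal component of the arrays, which held 25.8% of the variance, moved with the type I and type IV genes. Its r was 0.831 with Col1a1, 0.699 with Col4a1 and -0.859 with Col18a1 over 50 livers, and 0.737, 0.710 and -0.289 over 46. With that component as a covariate, 424 genes rather than 5130 were related to Col1a1, among them 2 members, Col1a2 (r = 0.731) and Col3a1 (r = 0.711), both positive as were 2.14% of genes.

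**Figure D3:**
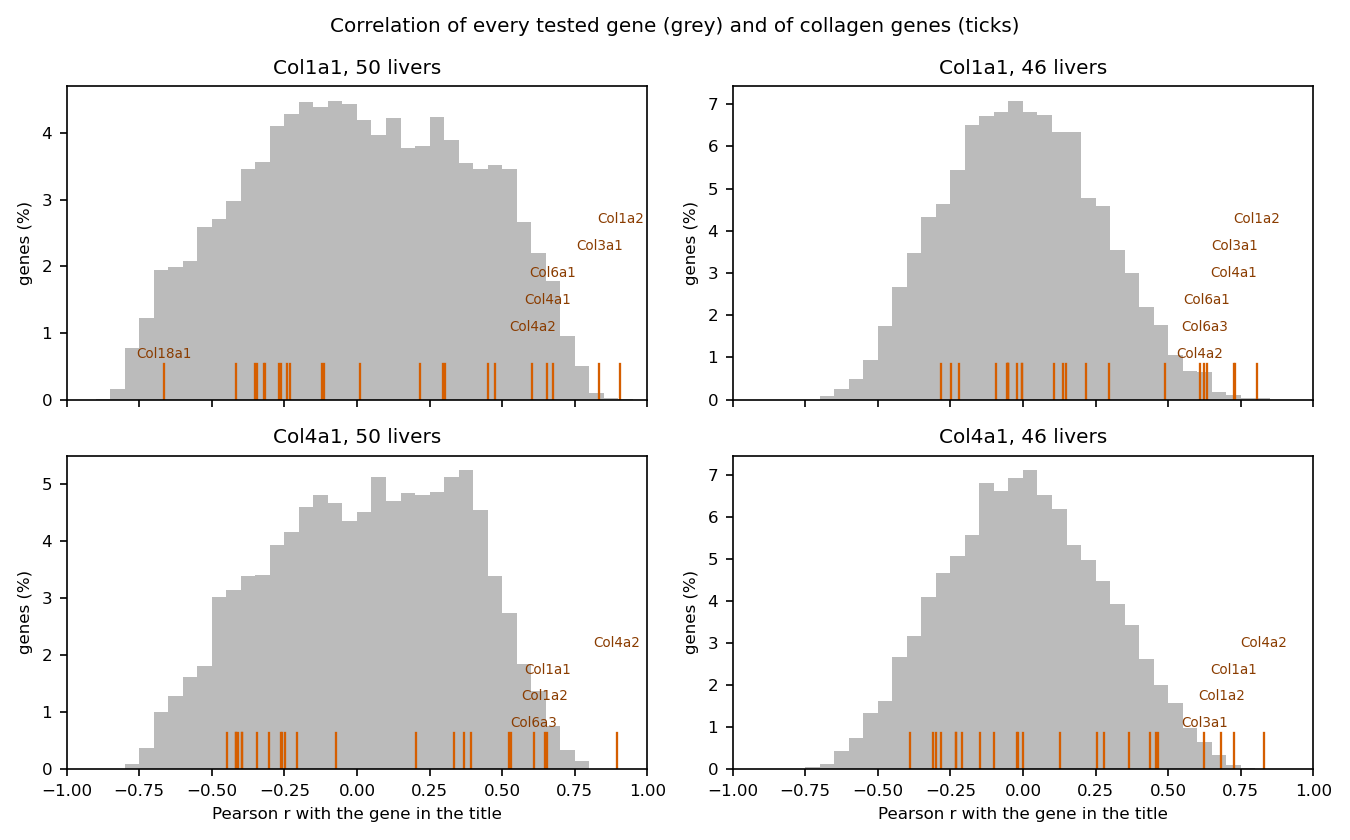
Share of all tested genes (vertical axis, percent) by Pearson r with Col1a1 (top) and Col4a1 (bottom), over 50 livers (left) and 46 livers (right); orange ticks are collagen genes and those at 0.6 or beyond are named. Over 46 livers the distribution of all genes is narrower and Col1a2, Col3a1 and Col4a1 lie in its right tail for Col1a1 (r = 0.806, 0.729 and 0.726).

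Genes that were not collagens and followed Col1a1 most closely were Runx1, a transcription factor, Anxa2, a calcium-dependent membrane-binding protein, and Arhgef2, with r of 0.871, 0.865 and 0.841 over 50 livers and 0.659, 0.815 and 0.708 over 46. Bmp2k, Emp3, Pak2, Emilin2, Clic1, Atp8a1 and Rab8b came next, between 0.838 and 0.805. Emilin2, a glycoprotein of the matrix, had 0.809 over 50 livers but 0.290 over 46. The most negative were Gcdh, Bckdha and Pccb, mitochondrial enzymes of amino acid breakdown, with -0.854, -0.840 and -0.836 over 50 livers and -0.641, -0.587 and -0.663 over 46.

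The same fit was made on Col4a1, and the 2 fits were not tested against each other. In the fit on Col4a1, 9 of 23 members were positive, against 22.9% of genes, and 7 negative, against 17.3%. The positive ones were Col4a2, Col1a1, Col1a2, Col3a1, Col5a2, Col6a1, Col6a2, Col6a3 and Col14a1. Over 46 livers 7 were positive (9.78% of genes), these without Col6a2 and Col14a1, and 1 was negative, Col6a6 with r = -0.388 (8.40% of genes). Slopes per log2 unit of Col4a1 were then 0.72 ± 0.07 (SE) for Col4a2, 0.89 ± 0.12 for Col1a1, 0.81 ± 0.15 for Col3a1 and 0.40 ± 0.12 for Col5a2. With the first array component as a covariate, Col4a2 (r = 0.802), Col6a3 (0.504) and Col18a1 (0.523) were the members positively related to Col4a1, where 7.04% of genes were. Col1a1 did not pass (r = 0.186, limma adjusted p = 0.441).

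The non-collagen genes that went closest with Col4a1 included Emcn, the endothelial surface protein endomucin, Lamb1, a laminin chain of basement membranes, and Heg1, a protein of endothelial junctions. Their r was 0.782, 0.766 and 0.764 over 50 livers and 0.726, 0.650 and 0.765 over 46. Ppic led them with 0.841, and Tnfrsf21, Mylip, Glg1, Myh9, Myo1c and Anxa1 lay between 0.788 and 0.761. Dera, Lrtm1 and Lrit1 were the most negative, with -0.810, -0.782 and -0.779, and -0.694, -0.690 and -0.662 over 46 livers.

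The fit on Col18a1 rested on few livers. Over 50 livers 5 members were positive (23.8% of genes) and 7 negative (26.5%), whereas over 46 livers no gene passed at an adjusted p under 0.05 in limma, while 1142 of 11089 had an unadjusted p under 0.05. On ranks over 50 livers 1.48% of genes passed and no member did. Without animal 64 the calls fell from 5585 to 3212 genes and from 12 to 8 members. Plg, plasminogen, Pard3 and Tspan12 led the positive genes over 50 livers with 0.912, 0.905 and 0.887, and had 0.492, 0.582 and 0.363 over 46. Nlrp6, Igfbp4, Cbs, Fah, Hpd, A1cf and Apob followed, and Sap30, Sav1 and Gmnn were the most negative.

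The type I and III genes were positively related to Col4a1, and not all fibrillar genes were. Over 50 livers r with Col4a1 was -0.418 for Col27a1, -0.343 for Col11a2 and -0.071 for Col5a3. Col1a1 and Col4a1 had r = 0.655 and rho = 0.726 (permutation p = 2e-05 and 1e-05, limma adjusted p = 1.62e-06), 0.625 without animals 235 and 64, and 0.864, 0.618, 0.790 and 0.692 within stretches. Over 46 livers r was 0.726 (adjusted p = 4.34e-06). Col3a1 and Col4a1 had r = 0.529 (rho = 0.599, permutation p = 0.00016 and 1e-05, limma adjusted p = 0.00069), and 0.624 over 46 livers (adjusted p = 0.00339). With the first array component as a covariate, the 2 relations were 0.1862 and 0.1504 and did not pass.

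The classes were also described by the median r of their pairs. Over 50 livers the median r was 0.146 over 28 fibrillar pairs, with a range from -0.346 to 0.907, and 0.291 over 16 pairs of a fibrillar with a basement membrane gene. The single basement membrane pair had 0.895. All pairs of tested genes had a median of 0.009. Over 46 livers these medians were 0.131, 0.350, 0.830 and 0.017. With the first array component as a covariate the order of the first 2 turned, to 0.151 for fibrillar pairs and 0.124 for fibrillar with basement membrane pairs. Within the fibrillar class, r with Col1a1 lay between -0.346 and 0.216 for Col5a1, Col5a3, Col11a2 and Col27a1. Of all 276 pairs among the 24 genes, 24 (8.70%) had r of at least 0.5, beside 3.92% of all pairs of tested genes, and over 46 livers 22 (7.97%), beside 1.38%. Correlations that share a gene are not independent, and no test was made of these shares.

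Outside types I, III and IV, a few members correlated with Col27a1. Col27a1, a fibrillar collagen of cartilage, had r = 0.614 with Col20a1, 0.594 with Col15a1 and 0.539 with Col6a6 over 50 livers, and 0.542, 0.578 and 0.516 over 46. Between Col20a1, Col15a1 and Col6a6 themselves r was lower, from 0.215 to 0.434 over 50 livers and from 0.151 to 0.367 over 46. With Col4a1, r of Col27a1 was -0.418 over 50 livers and -0.309 over 46. Col27a1 ran from 4.28 over 4.84 to 5.75, and Col15a1, Col6a6 and Col27a1 were all highest in animal 149, one of the livers high for pancreatic acinar genes. Col7a1 and Col9a2 had r = 0.508 with each other over 50 livers and 0.461 over 46. These pairs were picked for their correlation and carry no test.

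**Figure D4:**
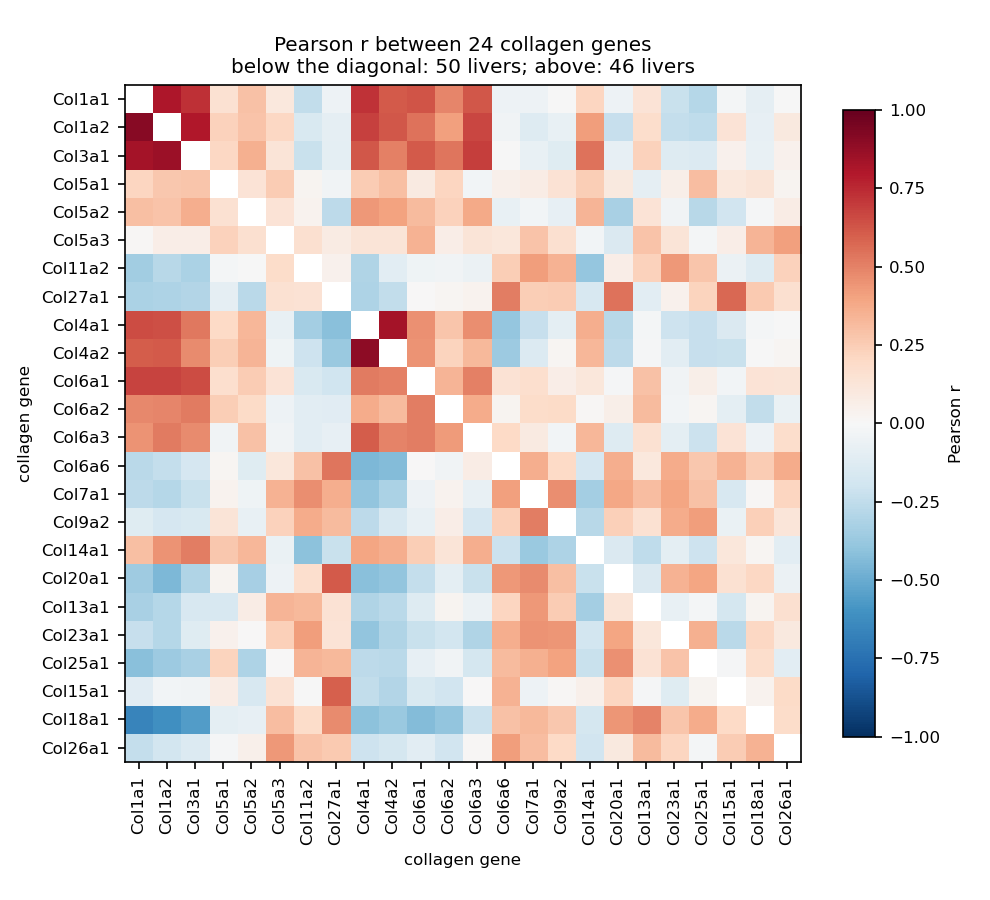
Pearson r between the 24 collagen genes at or above the median level, by class on both axes; colours below the diagonal are over 50 livers and above it over 46. Red cells join Col1a1, Col1a2, Col3a1, Col4a1, Col4a2 and Col6a1 on both sides of the diagonal, and the blue of Col18a1 with Col1a1 (-0.663) fades to -0.0917 above the diagonal.

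Whether a gene went with Col1a1 more than with Col4a1 was tested in 1 model with both. Col1a2 and Col3a1 leaned to Col1a1 (limma adjusted p = 0.000628 and 0.00164) and Col4a2 to Col4a1 (adjusted p = 0.000536), 2 and 1 of 22 members, against 1.95% and 5.30% of all genes. The difference between coefficients per SD of each covariate was 0.44 ± 0.08 (SE) log2 for Col1a2, 0.58 ± 0.12 for Col3a1 and -0.35 ± 0.07 for Col4a2. Each SD was that of the livers in the fit, so the unit changed with the set and sizes are not comparable between sets. Over 46 livers the differences for Col1a2, Col3a1 and Col4a2 were 0.18 ± 0.09, 0.20 ± 0.14 and -0.28 ± 0.08, in the same directions. They did not pass over 46 livers (limma adjusted p = 0.564, 0.684 and 0.176). There, 11 genes in all passed (0.0992%), among them Kdr, an endothelial receptor for vascular growth factor, and Ngfr, a stellate cell marker, both on the side of Col4a1 (adjusted p = 0.0225 and 0.0483). Without animal 84 alone, 375 genes passed in place of 804. On ranks no gene passed in limma, with 612 at an unadjusted p under 0.05. In the rank fit on Col1a1, limma gave the same SE of 0.139 to Col1a2 (r = 0.811) and to Col18a1 (r = -0.233). Close relations thus gained no smaller SE there, and the lack of calls on ranks does not show that differences are absent.

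The lists that follow are to be read against all genes. With Col1a1, 24.4% were positive and 21.9% negative over 50 livers and 7.30% and 6.78% over 46, and with Col4a1 it was 22.9% and 17.3%, and 9.78% and 8.40%. Of 18 genes that process procollagen, 7 were positively and 4 negatively related to Col1a1, with median r = 0.167 beside 0.00474 for all genes, and over 46 livers 5 were positive and none negative. Serpinh1, the collagen chaperone HSP47, had r = 0.457 (limma adjusted p = 0.0024) and 0.545 over 46 livers (adjusted p = 0.00229). Sparc, a collagen-binding matricellular protein, had 0.435 with Col1a1 but 0.760 with Col4a1, and 0.431 and 0.698 over 46 livers. P3h2, a prolyl hydroxylase that acts on type IV collagen, had 0.640 with Col4a1 and 0.592 over 46. Tmem38b, Mia3 and Bmp1, of which Mia3 exports procollagen and Bmp1 trims it, were negative with Col1a1 over 50 livers (-0.695, -0.609 and -0.562). Of 2 cross-linking enzymes tested, Loxl3 was positive in both sets (0.650 and 0.622) and Loxl4 did not pass (-0.105 and -0.118).

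Partners of the basement membrane followed both covariates. With Col4a1, 8 of 9 were positive and none negative over 50 livers, with median r = 0.524 beside 0.0486 for all genes, and 5 were over 46. With Col1a1 it was 6 and 5. Nid1, which bridges laminin and type IV collagen, had 0.742 with Col4a1 and 0.723 over 46 livers (limma adjusted p = 3.98e-06). Lamc1, a laminin chain, had 0.614 with Col1a1 and 0.706 over 46 livers. Of 9 fibril partners, 2 were positive with Col1a1 over 50 livers, which is no more than the share of all genes, and 3 over 46. Among them Thbs1, thrombospondin, had 0.592 with Col1a1 and 0.783 over 46 (limma adjusted p = 5.46e-08), and 4 of 9 were positive with Col4a1 over 46 livers, among them Postn and Bgn.

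Genes of TGF-beta signalling, a pathway that drives collagen transcription in fibroblasts, were positive or did not pass. With Col4a1, 8 of 13 were positive over 50 livers and 6 over 46, and with Col1a1 it was 4 in both, near the share of all genes over 50 livers. Tgfb1, the ligand, had 0.761 with Col1a1 and 0.640 with Col4a1, and 0.462 and 0.643 over 46 livers. Tgfbr2, its receptor, had 0.609 and 0.636 and was highest in animal 235 (7.65, median 5.70). Among collagen receptors, 2 of 5 were positive with Col1a1 over 50 livers, Itgb1 and Lair1, and 2 over 46, Ddr1 and Lair1. Of 7 genes for collagen breakdown, Mmp9, Timp2 and Mmp2 were positive and Mmp19 negative with Col1a1 over 50 livers, and 2 were positive (Mmp2 and Mmp14) and Mmp19 negative over 46. With Col4a1, 5 were positive and 1 negative over 50 livers, and over 46 none passed in limma and 3 had an unadjusted p under 0.05, Mmp19 (r = -0.362), Mmp9 (0.361) and Mmp14 (0.333).

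Markers of cell types moved with the collagens as follows, and their part in the relations was not tested. Beside them, the positive share of all genes was 22.9% with Col4a1 over 50 livers and 9.78% over 46. With Col1a1 it was 24.4% and 7.30%. Endothelial genes were positive with Col4a1 in 6 of 9 over 50 livers and in 8 of 9 over 46, with Cdh5 at 0.661 and Pecam1 at 0.645, and with Col1a1 in 4 and 3. Of 12 stellate and fibroblast genes, none was positive and 2 negative with Col1a1 over 50 livers, and Pdgfrb (0.447) and Cygb (0.418) were positive over 46. With Col4a1 it was 3 and 4. Macrophage genes were positive with Col1a1 in 5 of 7 over 50 livers and in none over 46, where 1, Cd68, had an unadjusted p under 0.05 (r = 0.355, limma adjusted p = 0.0688). With Col4a1, 1 of 7 was positive over 50 livers and 2 over 46, where 5 had an unadjusted p under 0.05 in limma. The median r of the macrophage list with Col4a1 was 0.177 over 50 livers and 0.316 over 46. Hepatocyte genes were negative with Col1a1 in 4 of 7 over 50 livers. Over 46 none passed, 0 had an unadjusted p under 0.05, and their median r was -0.0800. The mean standardised value of the list ran from -1.97 to 1.28 over livers for endothelium, -1.31 to 1.36 for stellate cells and fibroblasts, -1.97 to 3.32 for macrophages and -3.88 to 0.88 for hepatocytes. Of the cholangiocyte list, Sox9 and Krt7 were positive with Col1a1 over 46 livers (0.494 and 0.404), of 3 tested. Of activated myofibroblast genes, 3 of 4 were positive with Col1a1 over 50 livers and 1, Postn, over 46. All 4 had an unadjusted p under 0.05 in limma over 46, and their median r was 0.341 over 50 livers and 0.354 over 46. Of the lists of mesothelium, pancreatic acinar tissue and adipocytes, only 3, 1 and 1 genes were tested. None of them was positive with Col1a1 or Col4a1 in either set, and 1, Upk1b, was negative with Col1a1 over 50. The adipocyte gene, Cidec, had r = 0.282 with Col1a1 over 46 livers and an unadjusted p under 0.05 in limma. None of the mammary epithelium and chondrocyte genes reached the level of the tests.

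Single livers carried different collagens. In animal 235, 5 of 44 members lay at least 1 log2 above their median, Col1a1, Col1a2, Col3a1, Col4a1 and Col12a1, where 6.04% of all genes did, and Col18a1 lay at least 1 below, as did 3.89% of genes. Animal 64 had the same but Col6a1 in place of Col4a1, where 8.59% of genes lay above and 6.90% below. Animal 235 was the highest of all livers for the scores of the macrophage and myofibroblast lists, for Mmp9 (9.56, median 3.77) and for Mmp13 (5.63, median 2.51). Of the myofibroblast list it was highest for Timp1 and Lox (Lox 4.99, median 2.91), both below the level of the tests. Acta2 and Tagln were highest in animal 149, Postn in animal 161 and Thbs2 in animal 87. The hepatocyte score of animal 235 was -1.33 and its stellate score -0.99. The hepatocyte score of animal 64 was -3.88, its macrophage score -0.06 and its stellate score -0.91.

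In animal 84 the genes at least 1 log2 above their median were Col4a1, Col4a2, Col4a3 and Col4a4, 4 of 44 against 3.99% of genes. Its type I and III genes were at 5.49, 5.09 and 5.40 for Col1a1, Col1a2 and Col3a1. Its mean standardised value was 3.38 for the basement membrane genes tested, which are Col4a1 and Col4a2 alone, and -0.62 for the 8 fibrillar ones. Animal 84 was also highest for the list of basement membrane partners (2.13), for Timp3 (9.88, median 6.09), an inhibitor of matrix proteases, and for Gpm6a (7.65, median 4.07), and its macrophage score was -1.93.

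Animal 161 had 6 of 44 members at least 1 log2 above their median, against 2.80% of genes. They were Col1a1, Col4a5, Col9a1, Col9a3, Col11a1 and Col12a1. Col9a1 reached 5.86 against at most 3.42 in the other livers, Col9a3 5.88 against 4.16 and Col11a1 4.998 against 3.11, all chains known from cartilage. In the same liver Csn2 and Csn3, the milk caseins, reached 12.04 and 11.07 (medians 2.41 and 2.62), Epcam, an epithelial surface protein, 8.53 (median 2.98), and Tgfb3 8.49 (median 3.57). Wap and Krt14, also of the mammary list, did not exceed 4.06 and 3.10 in any liver. Of the chondrocyte list, Comp reached 6.21 (median 3.02), while Acan and Matn1 did not exceed 3.02 in any liver. Animal 87 had 3 members at least 1 log2 above, Col1a2, Col6a1 and Col12a1, against 2.98% of genes. In animal 149 it was Col15a1 alone, against 0.573% of genes.

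**Figure D5:**
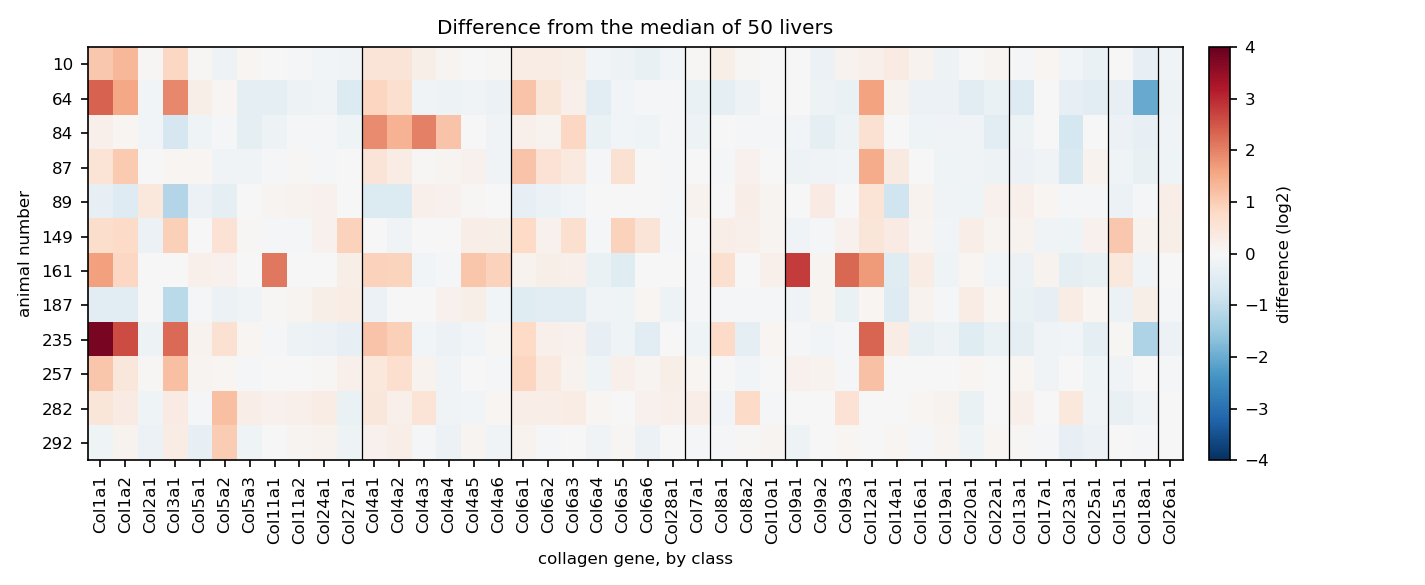
Difference of each collagen gene (horizontal axis, by class) from its median over 50 livers, in log2, in the 12 livers in which at least 1 member lay 1 log2 or more from it. Animals 64 and 235 share red at Col1a1, Col1a2, Col3a1 and Col12a1 and blue at Col18a1, animal 84 is red at Col4a1 to Col4a4, and animal 161 at Col9a1, Col9a3 and Col11a1.

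The animal number is the only label that differs between mice, and no collagen gene passed against it. None of 24 members passed in limma, against 9.30% of all genes, with Col11a2, Col5a2 and Col23a1 at an unadjusted p under 0.05. Col11a2 rose by 0.08 ± 0.03 (SE) log2 per 100 numbers (adjusted p = 0.0774), Col5a2 by 0.14 ± 0.06 (0.110) and Col23a1 by 0.11 ± 0.05 (0.143). Col1a1 had a slope of -0.05 ± 0.13 and Col4a1 of 0.01 ± 0.08. Without animal 24 or without animal 235, 1 member passed.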

How the data were processed

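From each liver, 100 ng of total RNA was labelled with a whole-transcript kit and put on 1 Affymetrix array, per the labels' protocols. The deposited values are log2 signals after RMA by the authors; the submitters' processing notes name Affymetrix Expression Console 1.4.1. No reads underlie them, so the number of arrays limits the precision. The extract protocol speaks of purified cell populations while the tissue label is liver; Alb was high in all 50. No genome build was given in the sources used here, so no coordinates are printed, and RefSeq's GRCm38.p6 gene table served only for names and neighbours.

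Of 41345 probe sets, 23521 had 1 symbol, 1814 several and 16010 none in the platform annotation, and only the first kind was used. Levels of different genes come from different probes and were not compared. Every gene at or above the median level was fitted on each covariate with limma 3.58.1 in R 4.3.3 (lmFit, eBayes with trend), with Benjamini-Hochberg adjustment over all of them and a threshold of 0.05. The script was tested on simulated data. Pairs were tested with 100000 permutations. Livers stood apart, or lay far out on a list, when beyond 3 interquartile ranges of the quartile. The labels do not say that mice were independent of litter or cage, whereas the p-values treat these livers as independent. Python 3.11.15 and scipy 1.17.1 were used.

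The members, lists and tests were chosen with earlier results of these data known. Genes that are no collagen were named as the 10 most positive and 3 most negative in each fit among those that passed, up to 4 of each list by the size of r, and the cell markers. List genes named over 46 livers or in single livers, such as Serpinh1, Mmp13, Lox and Tgfb3, were chosen after their values were seen. Alternatives were no filter on low values, the mean of all probe sets, centred arrays, ranks, livers left out, stretches of animal numbers as a block and the first array component as a covariate. Leaving out each liver in turn, or 11 livers together, was added after seeing the data. Some genes of the lists are not reported here.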

Additional observations from a re-analysis of the deposited data

How the results depend on the processing

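No paired analysis was possible because the labels put all mice in 1 group. The cause of each change below was not tested. Of the collagen genes, 11 passed in the fit on Col1a1, 16 on Col4a1, 12 on Col18a1, 3 in that of Col1a1 against Col4a1 and 0 on the animal number (limma, 3 at an unadjusted p under 0.05). Without the 4 livers that stand apart these were 7, 8, 0, 0 and 0, and over all genes 1562, 2015, 0, 11 and 1457 in place of 5130, 4453, 5585, 804 and 1031. With the first array component as a covariate, 2, 3 and 2 members passed on Col1a1, Col4a1 and Col18a1, of 424, 1120 and 1372 genes. Without 11 livers it was 7, 10, 0, 0 and 1, of 872, 1391, 0, 11 and 1562 genes. Ranks left 0 members on Col18a1 and 0 in the contrast, and 1892, 2790, 164 and 0 genes in the first 4 fits. As the SE on ranks was no smaller for close relations than for weak ones, fewer calls there do not show that relations are absent. With no filter, 6 members passed in the contrast, and without the 7 livers far out on a list 1 passed on the animal number. Leaving out 1 liver at a time gave 9 to 14, 13 to 17, 8 to 14, 3 to 4 and 0 to 1 members, and 4094 to 5271, 3413 to 4545, 3212 to 5654, 375 to 899 and 899 to 1315 genes.

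Pairs that no longer passed were, on ranks, Col3a1 with Col5a2 (0.3675), Col4a3 with Col4a4 (0.332), Col4a5 with Col4a6 (0.2325), and Col18a1 with Col1a1 (-0.233) and Col4a1 (-0.198). Over 46 livers they were Col3a1 with Col5a2 (0.355), Col4a3 with Col4a4 (0.142), Col6a1 with Col6a2 (0.343), and Col18a1 with Col1a1 (-0.0917) and Col4a1 (-0.0194). Without the 7 it was Col4a5 with Col4a6 (0.194). Without 11 livers they were Col3a1 with Col5a2 (0.331), Col4a3 with Col4a4 (0.130), Col4a5 with Col4a6 (0.205), Col6a1 with Col6a2 (0.399) and Col6a3 (0.422), and Col18a1 with Col1a1 (-0.1004) and Col4a1 (-0.0252). With the first component they were Col3a1 with Col5a2 (0.347), Col6a1 with Col6a2 (0.302) and Col6a3 (0.359), and Col4a1 with Col1a1 (0.186) and Col3a1 (0.1504). There the sign turned for Col18a1 with Col1a1 (0.178), Col4a1 (0.523), Col1a2 (0.217), Col4a2 (0.557), Col6a1 (0.297) and Col6a2 (0.0358), and for Col1a1 with Col20a1 (0.0938). It also turned for Col18a1 with Col6a1 over 46 livers (0.134) and with Col13a1 without 11 (-0.204). Col1a1 with Col1a2 and Col3a1, and Col4a1 with Col4a2, passed under each of these alternatives.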

Other observations

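Of the collagen genes, 3 are read by a second single-symbol probe set. That of Col1a2 had a median of 2.42 and r = 0.689 with the first over 50 livers, that of Col5a1 a median of 3.40 and r = 0.175, and that of Col6a1 a median of 3.12 and r = 0.250. Each of these second probe sets lay below 3.61, the median level of all genes. That of Col6a1 had an SD of 0.16, against 0.71 for that of Col5a1. The 2 probe sets of Col5a1 and of Col6a1 were thus weakly correlated, and values of these genes hold for the brighter one only.

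Animal 149 was highest of all livers for Col6a5 (4.10, median 3.17), Col6a6 (4.33, median 3.80), Col15a1 (5.005, median 3.939) and Col27a1 (5.75, median 4.84). The same liver was highest for Acta2, the smooth muscle actin of myofibroblasts and vessel walls (9.14, median 5.92), and for Ogn, a small proteoglycan (6.07, median 3.51), and its acinar score was 3.14. The part of other tissue in these values was not tested.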
